A study of Arabidopsis thaliana with 44 samples.

Results

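The ago5ago9 double mutant of Arabidopsis thaliana was compared with wild type in seedling shoot apices. The comparison used 12 of the 44 RNA-seq libraries of the study: the 4 libraries labelled ago5ago9, replicates 1 to 4 of wt21 and replicates 1 to 4 of wt col-0. Replicates 5 to 8 of both wild types were left out. All groups are labelled ecotype Col-0, came from seedlings kept in soil under days of 16 h light and nights of 8 h, and were taken 7 days after germination. The ago5ago9 plants are labelled as mutant in AGO5 and AGO9. The labels give neither the alleles, nor how wt21 differs from wt col-0, nor whether replicates were separate plants or pools. P-values therefore measure the spread between these samples, which may be technical. The question was how loss of both proteins changes RNA in the apex, the organ tip that holds the shoot apical meristem.

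ARGONAUTE proteins are the small-RNA-binding core of silencing complexes. AGO9 belongs to the AGO4 clade, which guides DNA methylation to transposable elements (TEs) through small interfering RNAs, and AGO5 is a relative of AGO1 and AGO10, which act on messenger RNA. Both AGO5 and AGO9 are best known from reproductive tissue. Where DNA methylation at a silenced element or a methylation-dependent gene is lost, the RNA level of that locus can change.

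Library totals were 5507552 to 8367145 counts in ago5ago9 and 4985458 to 6577648 in wild type. Organelle genes took 5.23% to 13.4% of counts in ago5ago9 and 7.70% to 14.4% in wild type. A count of 0 allowed a level of up to 0.378 to 0.703 CPM in these 12 libraries, where CPM is the count scaled to an equal total in every library and the limit is 3 counts of that total. Such limits cover counting error only. Markers of the labelled tissue were low. STM, the homeobox gene that marks the meristem, ran from 2.99 to 5.81 CPM in ago5ago9 and from 3.35 to 6.48 CPM in wild type, whereas WUS, the stem cell organiser, was at or below 0.194 CPM in ago5ago9 and at 0 in all 8 wild-type libraries. The 18 photosynthesis genes summed to between 146600 and 215300 CPM in ago5ago9 and between 150500 and 205600 CPM in wild type. In such bulk samples, fewer cells of a type and less RNA per cell cannot be told apart.

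The targeted genes were examined first. AGO9 had 0 counts in each of the 4 ago5ago9 libraries, against 2 to 8 counts in each of the 8 wild-type libraries. Pooled over the groups, AGO9 was at least 6.09-fold lower in ago5ago9 than in wild type, with the 0 counts of ago5ago9 set to a floor of 3 counts over the group. AGO5 also had 0 counts in each ago5ago9 library, but the 8 wild-type libraries together held only 10 counts, 0 of them in 4 libraries. Its pooled level was at least 1.90-fold lower, so these libraries check the AGO5 label weakly. AGO4, the main methylation-guiding ARGONAUTE, had 159, 197, 160 and 135 counts in ago5ago9 and 108 to 197 in wild type. None of the 5 ARGONAUTE genes with enough counts for a test (AGO1, AGO2, AGO4, AGO7 and AGO10) was called, and 0 of them had an unadjusted p under 0.05.

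Before the genes are described, a split among the mutant libraries needs stating. Replicates 1 and 2 of ago5ago9 stood apart from replicates 3 and 4 for many genes, above all those of auxin response. Across the 15211 features tested, edgeR's quasi-likelihood test with Benjamini-Hochberg adjustment called 80 (0.526%) at an adjusted p under 0.05. Of these, 70 (0.460%) were higher and 10 (0.0657%) were lower in ago5ago9, and 1 was a TE. At an unadjusted p under 0.05 there were 1958 (12.9%). In 47 of the 70 higher calls, replicates 1 and 2 both lay above replicates 3 and 4, an order seen in 2880 of all features tested. The number of calls was 10 without ago5ago9 replicate 1, 12 without replicate 2, 244 without replicate 3 and 92 without replicate 4. It was 34 without wt col-0 replicate 2, 42 without wt col-0 replicate 1 and 46 without wt21 replicate 3. With replicates 1 and 2 both left out, 6 features were called, 4 of them among the 80, whereas 342 were called with replicates 3 and 4 left out. Both of these settings were chosen after the values were seen. The share of higher calls also rested on the control: 21 were higher and 23 lower against wt col-0 alone, and 29 were higher and 4 lower against wt21 alone.

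**Figure D1:**
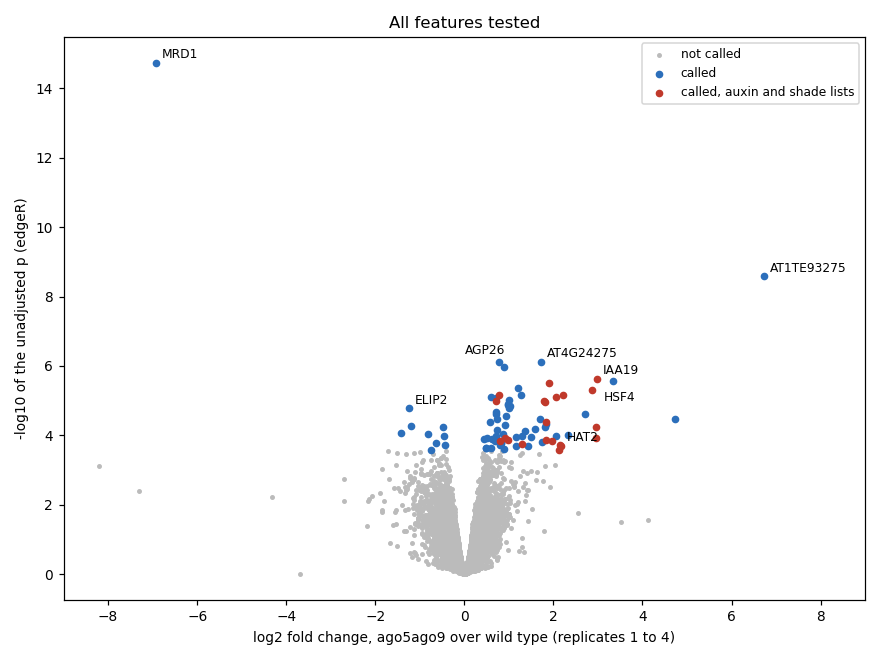
Log2 fold change of ago5ago9 over wild type (x axis) against −log10 of the unadjusted edgeR p (y axis) for the 15211 features tested. Each point is a gene or TE, and blue points are called, and red points are called members of the Aux/IAA, GH3, SAUR and HD-ZIP II and shade lists. The 70 higher calls outnumber the 10 lower ones, and MRD1 and AT1TE93275 stand far from the rest.

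A pair of loci separated mutant from wild type in every library. MRD1 (AT1G53480), a gene named for its lower RNA level in a methionine-overaccumulating mutant, was nearly silent. Its estimated counts were 1, 7.67, 1.38 and 0 in ago5ago9, against 189 to 351 in wild type. The level was 0.170, 1.04, 0.194 and 0 CPM in ago5ago9 and between 42.2 and 61.0 CPM in wild type. Every mutant library lay far under every wild-type library. Pooled over libraries, the wild-type level was 132 times the ago5ago9 level (fitted log2 fold change −6.93, SE 0.29, adjusted p = 2.78e-11 by edgeR). Counts of MRD1 were not whole in 10 of the 12 libraries, as when reads are shared with another feature, so its exact level is uncertain. The other listed loci under methylation control, SDC, FWA, QQS and MRU1, were at or below 1.70 CPM in ago5ago9 and at or below 1.56 CPM in wild type, too few counts for the test.

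The second locus was the transposable element AT1TE93275, with 41, 54, 52 and 61 counts in ago5ago9. It had 0 counts in all 4 wt21 libraries and 0, 0, 5 and 2 counts in wt col-0. The level was 6.97, 7.01, 10.1 and 13.2 CPM in ago5ago9, against at most 0.826 CPM in wild type, and no library of either group crossed into the other's range. Pooled ago5ago9 counts were at least 59.0-fold higher than in wt21, with the 0 counts of wt21 set to 3 over the group, and 26.8-fold higher than in wt col-0 (adjusted p = 2.00e-05 for ago5ago9 against both, edgeR). These changes were not particular to the double mutant. In ago5, the single mutant, MRD1 ran from 2.09 to 5.83 CPM and AT1TE93275 from 5.81 to 9.24 CPM with all 44 libraries scaled together. In the libraries labelled ago9, the other single mutant, MRD1 ran from 16.8 to 29.6 CPM and AT1TE93275 from 2.72 to 11.7 CPM. Some mutant groups outside this comparison hold libraries that go against their labels, so ranges by label may mix genotypes. AT1TE93275 was at 2.72 CPM or above in all 24 libraries of the other 6 mutant groups, and at 0.864 CPM or below in wild-type replicates 5 to 8. MRD1 was not lower in every mutant group. It ran from 53.25 to 64.94 CPM in the libraries labelled ddm1, against 54.75 to 66.38 CPM in wild-type replicates 5 to 8.

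No other TE was called. Of 31189 TE rows, 117 had enough counts for the test; 36 of these had a positive and 81 a negative log2 fold change (median −0.17, against −0.00 over all features), with 7 higher and 15 lower at an unadjusted p under 0.05. TE rows held 0.1298% ± 0.027 of nuclear and TE counts in ago5ago9 (SD, n = 4) and 0.153% ± 0.0182 in wild type (SD, n = 8), a difference of −0.0228 percentage points (two-sided exact permutation test, p = 0.105). Replicate 3 of ago5ago9, with the mutant group's highest share at 0.170%, also had its highest organelle share at 13.4%. Without it the difference was −0.0361 points (p = 0.0121, the same exact test). A single row, AT3G41768, held 5.72%, 4.80%, 14.8% and 5.74% of nuclear and TE counts in ago5ago9 and 7.11% to 14.7% in wild type. Replicates 1, 2 and 4 of ago5ago9 thus lay below all 8 wild-type libraries in this share, and replicate 3 above them. The parts of organelle content and of AT3G41768 in the TE share were not tested.

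With these loci counted in, 39 of the 70 higher calls and 7 of the 10 lower calls had no overlap between the 4 ago5ago9 and the 8 wild-type libraries. Over all features tested, 0.802% were higher and 0.605% lower without overlap. Among the higher genes was AGP26, a cell-surface arabinogalactan protein, at 34.8, 35.6, 36.8 and 43.2 CPM in ago5ago9 and 18.3 to 25.3 CPM (median 22.2) in wild type. All 4 mutant values were close together and above the range of these 8 wild-type libraries (log2 fold change 0.78, SE 0.11, adjusted p = 0.00294, edgeR). Wild-type replicates 5 to 8, however, reached 36.2 CPM for AGP26, against 35.2 to 43.8 CPM in ago5ago9, with all 44 libraries scaled together. On that scale their range also overlapped ago5ago9 for PYK10, IAA7, EXPA11, AT2G43500, XRN2 and AT5G12470, described below. It did not for the other features named here as without overlap. AT4G24275, for which the annotation gives no name, had 18.18, 22.1, 14.1 and 14.7 CPM in ago5ago9, against 2.60 to 8.26 CPM in wild type. Its log2 fold change was 1.72 (SE 0.24, adjusted p = 0.00294, edgeR), and it missed the threshold with replicates 1 and 2 left out (log2 fold change 1.45, adjusted p = 0.195). RTFL17, a small peptide of the DEVIL family whose overexpression changes organ shape, had 53.5, 49.4, 37.9 and 33.2 CPM in ago5ago9. The wild-type libraries ran from 18.23 to 31.0 CPM for RTFL17, all below the 4 mutant ones (log2 fold change 0.89, SE 0.12, adjusted p = 0.00315, edgeR). The RTFL17 call also ended with replicates 1 and 2 left out (0.59, adjusted p = 0.195), against wt col-0 alone (0.64, adjusted p = 0.0758) and with all 44 libraries in 1 model (0.90, adjusted p = 0.0616).

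Transcription factors BZIP34 and BZIP61, close relatives within the basic leucine zipper family, were both higher. BZIP34 had 21.8, 17.3, 15.7 and 14.2 CPM in ago5ago9 and 5.34 to 12.3 CPM in wild type (log2 fold change 1.20, SE 0.19, adjusted p = 0.00707, edgeR). BZIP61 had 26.9, 24.5, 26.5 and 17.5 CPM in ago5ago9 and 6.01 to 15.7 CPM in wild type (log2 fold change 1.27, SE 0.21, adjusted p = 0.0077, edgeR). Neither gene's groups overlapped. Without ago5ago9 replicate 1, adjusted p was 0.0649 for both, and without replicate 2 it was 0.0529 for BZIP61, whose call also ended against wt col-0 alone. PYK10, an abundant beta-glucosidase of endoplasmic reticulum bodies, had 467, 435, 308 and 462 CPM in ago5ago9 and 213 to 287 CPM in wild type (log2 fold change 0.71, SE 0.12, adjusted p = 0.0077, edgeR). PYK10 was the 1 called gene of 3 tested in a list of 8 root markers. SHR and SCR were not called, and PLT1, RHD6, EXPA7 and COBL9, which define root tips and root hairs, were at 0 in all 4 ago5ago9 libraries. WOX5, which marks the root stem cell niche, was detected at 2.21, 1.69, 0.387 and 0.863 CPM in ago5ago9 and at 0.410 to 2.29 CPM in wild type, too low for the test. In wild type PLT1, RHD6 and EXPA7 were at 0 in all 8 libraries, and COBL9 reached 0.703 CPM in 1. The PYK10 call was lost without ago5ago9 replicate 1 (adjusted p = 0.0649) or replicate 2 (0.0607), and against wt col-0 alone. With all 44 libraries scaled together, PYK10 ran from 445 to 861 CPM in wild-type replicates 5 to 8, against 311 to 471 CPM in ago5ago9. That wild-type range began inside the mutant range and ended above it, so the higher level held against replicates 1 to 4 only. The 24 libraries of the other mutant groups ran from 142 to 496 CPM.

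**Figure D2:**
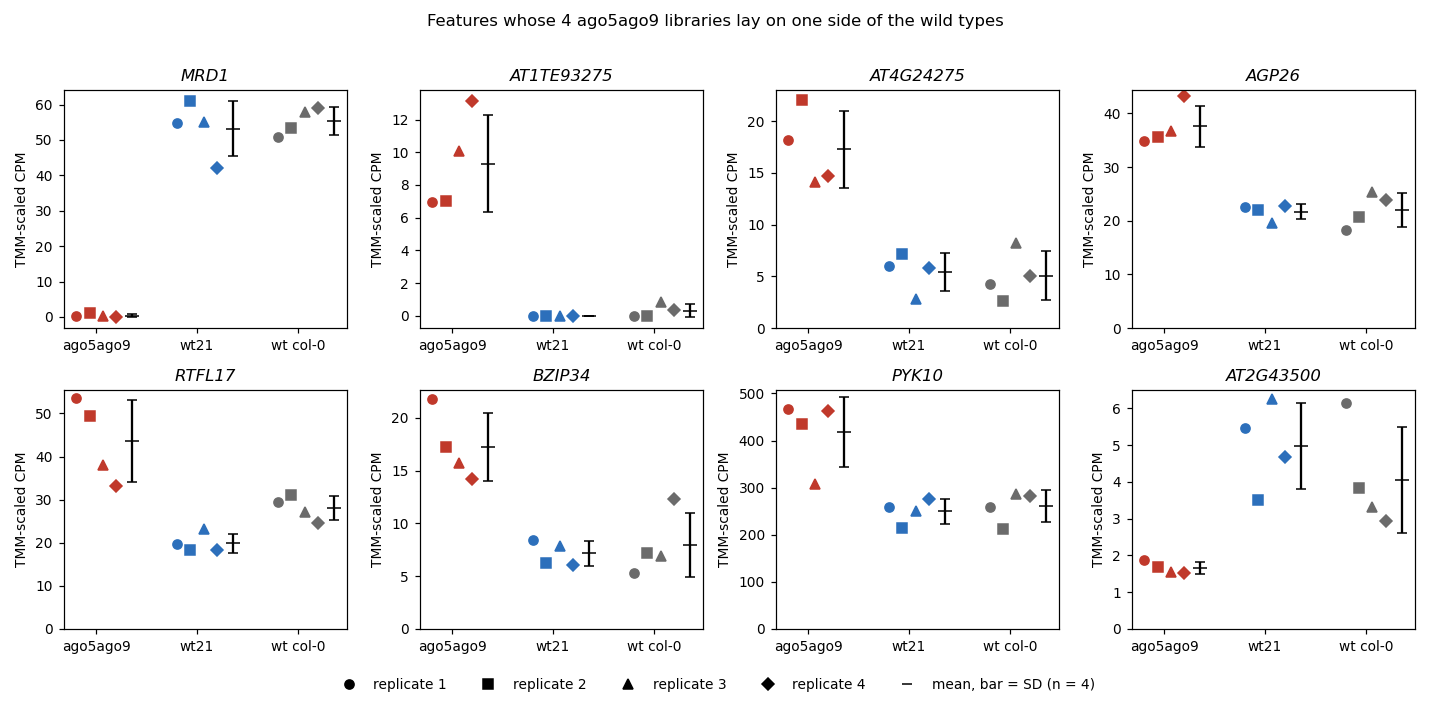
CPM of 8 called features in each library (y axes, linear), with ago5ago9 in red, wt21 in blue and wt col-0 in grey, 1 symbol per replicate number, and black marks for the mean and SD of 4 libraries. All 4 ago5ago9 libraries lie on one side of the 8 wild-type libraries in every panel, below for MRD1 and AT2G43500 and above for the other 6.

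Lists of auxin and shade response genes held 21 of the 70 higher calls. Auxin is a growth hormone: it brings Aux/IAA repressor proteins to their destruction, which frees ARF transcription factors to act at their target genes. Aux/IAA genes are themselves among these targets, as are GH3 genes, whose enzymes conjugate and so inactivate auxin, and SAUR genes, whose small proteins acidify the cell wall and drive cell elongation. In shade, PIF transcription factors raise auxin synthesis and turn on HD-ZIP II homeobox genes such as HAT2 and ATHB2, together with HFR1, which restrains PIFs. Of 28 Aux/IAA genes listed, 19 were tested, and 5 were higher and 0 lower. Of 26 SAUR genes listed, 17 were tested, and 10 were higher and 0 lower. Of 8 GH3 genes listed, 6 were tested, and 2 were higher and 0 lower. Of 23 HD-ZIP II and shade genes listed, 17 were tested, and 4 were higher and 0 lower. Higher calls were 0.460% of all features tested. The median log2 fold change was 1.80 for the SAUR, 0.45 for the HD-ZIP II and shade, 0.40 for the GH3 and 0.24 for the Aux/IAA genes tested, against −0.00 for all features.

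The counts changed with the control and the tool. Against wt col-0 alone, edgeR called 0 of 17 SAUR genes (15 higher at an unadjusted p under 0.05), 0 of 17 HD-ZIP II and shade genes (7 higher and 2 lower unadjusted), 2 Aux/IAA and 1 GH3 gene. Against wt21 alone it called 3 of 13 SAUR, 2 HD-ZIP II and shade, 2 Aux/IAA and 0 of 6 GH3 genes (3 higher unadjusted). Limma voom called 2 SAUR, 3 HD-ZIP II and shade, 2 Aux/IAA and 1 GH3 gene against both wild types. DESeq2 called 8, 4, 3 and 2 genes of the same lists.

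Within the mutant group, these 21 calls rested on 2 of the 4 libraries. In all 21, replicates 1 and 2 lay above replicates 3 and 4 and above all 8 wild-type libraries, and in 16 of them replicate 3 or 4 fell inside the wild-type range. In 20 of the 21, replicates 1 and 2 also exceeded each of the 40 other libraries of the study. Replicates 3 and 4 did so in 1, IAA19. With replicates 1 and 2 left out, edgeR called 0 genes of these 4 lists, and 4 SAUR, 3 Aux/IAA, 3 HD-ZIP II and shade and 1 GH3 gene were higher at an unadjusted p under 0.05. With replicates 3 and 4 left out, 18 of 20 SAUR genes tested were called higher, 8 of 21 Aux/IAA genes, 3 of 6 GH3 genes and 8 of 21 HD-ZIP II and shade genes. Both divisions were chosen after the values were seen. The second kept the libraries in which these genes were high, so its calls give no further support. Its filter also let in more SAUR, Aux/IAA and HD-ZIP II and shade genes than the main fit tested. Among the other 46 higher calls outside these lists and the cell wall list, replicates 1 and 2 lay above replicates 3 and 4 in 25.

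The upstream windows of 4 of these genes are shown because the genes moved together and the letters let a reader see which auxin and PIF motifs each window holds. Each line is the 300 bases before the RefSeq gene start in build TAIR10.1, read 5′ to 3′ on the gene's strand. They lie at chr3:5263701-5264000 (plus strand) for IAA19, chr1:10320711-10321010 (plus) for SAUR66, chr5:19218008-19218307 (minus) for HAT2 and chr1:467881-468180 (minus) for HFR1. Capitals mark TGTCTC and TGTCGG, forms of the auxin response element bound by ARFs, CACGTG, the G-box, and CACATG, an E-box variant bound by PIFs, each searched on both strands so that CATGTG is also a match of CACATG.
IAA19: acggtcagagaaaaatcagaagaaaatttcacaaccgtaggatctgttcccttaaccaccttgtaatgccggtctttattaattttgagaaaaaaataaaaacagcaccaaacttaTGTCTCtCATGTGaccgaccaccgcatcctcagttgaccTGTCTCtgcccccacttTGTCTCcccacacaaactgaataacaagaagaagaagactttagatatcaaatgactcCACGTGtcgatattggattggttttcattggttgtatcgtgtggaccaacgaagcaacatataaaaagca
SAUR66: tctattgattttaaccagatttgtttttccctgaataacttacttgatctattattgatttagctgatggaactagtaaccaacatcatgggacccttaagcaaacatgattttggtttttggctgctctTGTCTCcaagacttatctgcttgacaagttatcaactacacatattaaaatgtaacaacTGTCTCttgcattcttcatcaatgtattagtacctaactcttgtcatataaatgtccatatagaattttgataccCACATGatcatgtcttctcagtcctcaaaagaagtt
HAT2: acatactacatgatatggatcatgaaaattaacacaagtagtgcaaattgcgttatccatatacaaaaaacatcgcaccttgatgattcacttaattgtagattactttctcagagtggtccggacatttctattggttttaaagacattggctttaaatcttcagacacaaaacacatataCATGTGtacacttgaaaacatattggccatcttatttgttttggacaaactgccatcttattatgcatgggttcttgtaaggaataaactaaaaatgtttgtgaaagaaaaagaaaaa
HFR1: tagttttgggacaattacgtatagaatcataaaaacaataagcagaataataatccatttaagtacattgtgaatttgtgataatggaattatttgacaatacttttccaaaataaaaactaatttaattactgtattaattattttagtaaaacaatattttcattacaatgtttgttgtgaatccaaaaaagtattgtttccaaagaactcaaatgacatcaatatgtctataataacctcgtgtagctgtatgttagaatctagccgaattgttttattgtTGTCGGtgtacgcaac
The IAA19 window held 3 matches of TGTCTC, 1 of CACGTG and 1 of CACATG. The SAUR66 window held 2 of TGTCTC and 1 of CACATG, the HAT2 window 1 of CACATG, and the HFR1 window 1 match of TGTCGG. The E-box variant CACATG was found in 13 of the 21 windows of called auxin and shade genes (61.9%), in 26 of 69 windows of all higher calls (37.7%) and in 1906 of the 15048 windows of all tested nuclear genes (12.7%). TGTCTC was found in 28.6%, 15.9% and 12.7% of the same sets, TGTCGG in 19.0%, 8.70% and 5.64%, and CACGTG in 9.52%, 8.70% and 8.07%. These are matches of letters in sets chosen by their RNA level, and several SAUR genes are tandem copies with similar sequence.

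IAA19, the Aux/IAA gene with the smallest p, had 30.1, 77.9, 8.90 and 9.93 CPM in ago5ago9, against 1.85 to 8.48 CPM (median 3.54) in wild type. All 4 mutant libraries lay above the wild types, replicates 3 and 4 by little (log2 fold change 2.97, SE 0.44, adjusted p = 0.00598, edgeR). IAA19 stayed called without each of the 12 libraries in turn (highest adjusted p = 0.038), but not with replicates 1 and 2 both left out (1.19, adjusted p = 0.421), under limma voom (2.61, adjusted p = 0.0635) or against wt21 alone (2.73, adjusted p = 0.0713). IAA2 had 114, 118, 27.9 and 32.8 CPM in ago5ago9 and 12.9 to 35.4 CPM in wild type (log2 fold change 1.91, SE 0.29, adjusted p = 0.00605). IAA29 had 18.7, 15.4, 1.94 and 2.59 CPM in ago5ago9 and 0.153 to 4.70 CPM in wild type (2.95, SE 0.61, adjusted p = 0.0332). IAA1 had 40.3, 41.3, 9.48 and 6.69 CPM in ago5ago9 and 2.39 to 15.0 CPM in wild type (1.82, SE 0.38, adjusted p = 0.0347). In all 3, the first pair of mutant libraries was high and the second pair lay within the wild-type range. IAA7, another member, had 110, 111, 73.7 and 86.1 CPM in ago5ago9 and 41.9 to 62.3 CPM in wild type, with no overlap (0.77, SE 0.12, adjusted p = 0.0077). Auxin-conjugating GH3.6 likewise did not overlap, at 65.9, 66.5, 44.5 and 51.6 CPM in ago5ago9 and 29.1 to 40.3 CPM in wild type (0.72, SE 0.12, adjusted p = 0.00816). GH3.5 did, at 51.8, 62.6, 24.6 and 31.3 CPM in ago5ago9 and 16.4 to 30.9 CPM in wild type (0.92, SE 0.19, adjusted p = 0.0332).

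SAUR genes showed the same split among the mutant libraries. SAUR66 had 36.0, 34.8, 6.77 and 8.42 CPM in ago5ago9 and 3.28 to 7.63 CPM in wild type (log2 fold change 2.22, SE 0.36, adjusted p = 0.0077, edgeR). SAUR19, a promoter of hypocotyl elongation, had 13.9, 11.6, 4.45 and 1.29 CPM in ago5ago9 and 0.368 to 1.83 CPM in wild type (2.88, SE 0.45, adjusted p = 0.0074). SAUR62, SAUR1, SAUR63 and SAUR28 had log2 fold changes of 1.78, 1.80, 1.84 and 2.96, with adjusted p of 0.00816, 0.00816, 0.0186 and 0.0219. Of these 6, only SAUR62 had all 4 mutant libraries above the wild-type range. SAUR19 to SAUR24, SAUR26 to SAUR29 and SAUR61 to SAUR68 are sets of similar, partly tandem copies, and how reads were divided among such copies is not stated, so single members are uncertain. The summed level of the 26 SAUR genes does not depend on that division within the list. It was 625, 531, 259 and 270 CPM in ago5ago9 and between 210 and 312 CPM in wild type, with replicates 3 and 4 inside the wild-type range.

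Homeobox gene HAT2 also split by mutant library, at 78.3, 76.5, 8.32 and 7.34 CPM in ago5ago9 and 3.69 to 14.3 CPM in wild type. Replicates 3 and 4 lay below the wild-type median of 11.6 CPM (log2 fold change 2.16, SE 0.47, adjusted p = 0.0413, edgeR). With replicates 1 and 2 left out, its log2 fold change was −0.31 (adjusted p = 0.921). HAT1 had 30.9, 26.1, 17.8 and 20.07 CPM in ago5ago9 and 6.94 to 20.8 CPM in wild type (0.99, SE 0.21, adjusted p = 0.0353). HAT3 had 42.1, 41.5, 25.0 and 25.9 CPM in ago5ago9 and 14.5 to 28.0 CPM in wild type (0.80, SE 0.17, adjusted p = 0.0359). HFR1 had 6.97, 8.96, 3.097 and 3.67 CPM in ago5ago9 and 0.925 to 2.75 CPM in wild type, without overlap (2.05, SE 0.34, adjusted p = 0.0077). PIF4, the shade and temperature regulator, was not called: 53.4, 53.6, 36.2 and 38.8 CPM in ago5ago9 and 24.5 to 43.5 CPM in wild type (0.45, SE 0.17, adjusted p = 0.245).

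Leaving out single libraries showed how close these calls were to the threshold. Without ago5ago9 replicate 1 or replicate 2, adjusted p was 0.0626 and 0.0529 for IAA2, 0.0649 and 0.0663 for IAA7, 0.0729 and 0.0794 for GH3.6, and 0.0649 and 0.0936 for HFR1. It was 0.0649 and 0.0607 for SAUR19, 0.0672 and 0.0794 for SAUR66, 0.0795 and 0.0807 for SAUR62, 0.0739 and 0.0794 for SAUR1, 0.18 and 0.194 for SAUR28, and 0.169 and 0.178 for SAUR63. SAUR28 was also lost without wt col-0 replicate 1 (0.0529), and SAUR63 without wt col-0 replicate 2 (0.0508). The calls of IAA1, IAA29, GH3.5, HAT1, HAT2 and HAT3 were lost without either of those mutant libraries and without 5 to 8 of the wild-type libraries one at a time, at highest adjusted p of 0.254, 0.238, 0.253, 0.233, 0.269 and 0.238. Of all 38 features named here, 25 lost their call against wt col-0 alone, 18 against wt21 alone and 35 with replicates 1 and 2 left out. Among the auxin and shade genes, IAA7 kept its call against either wild type alone, and IAA1, IAA29, GH3.5, HAT2, HAT3 and SAUR63 kept it against neither.

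**Figure D3:**
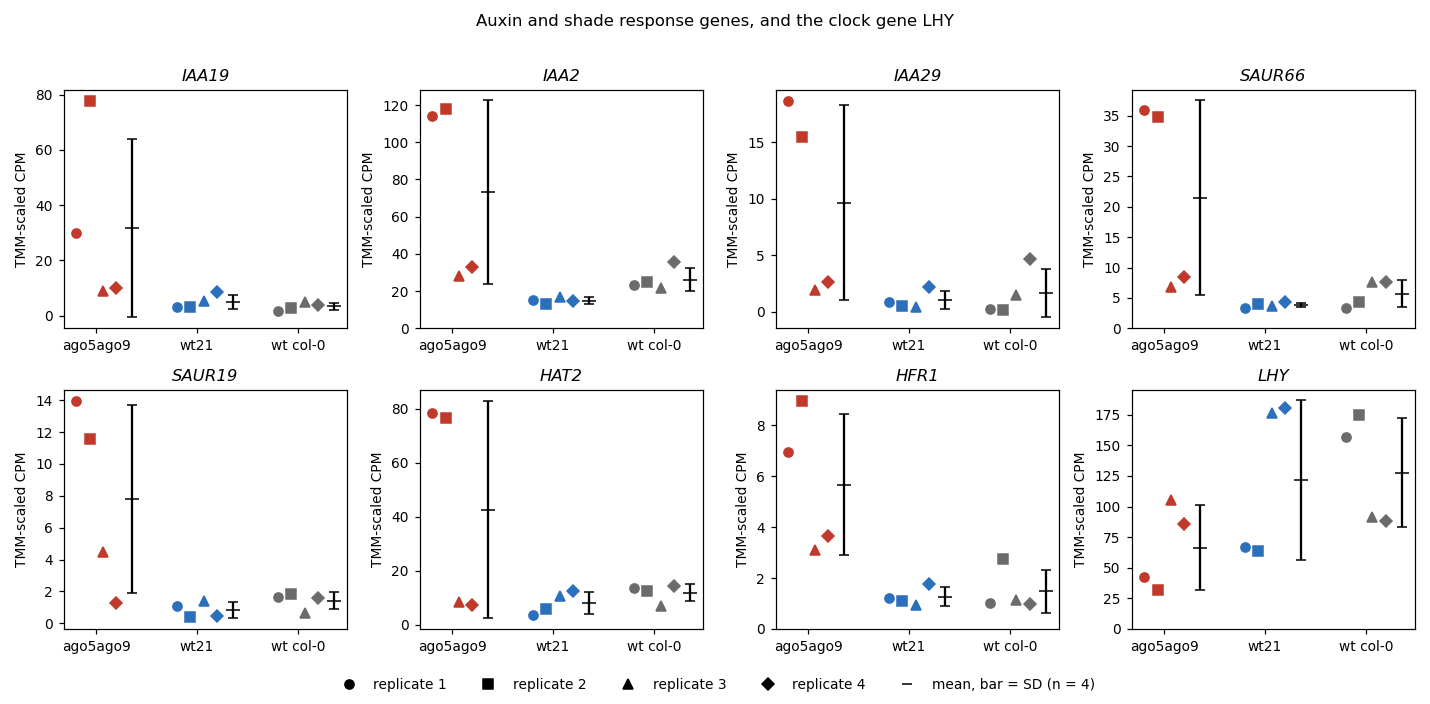
CPM of 7 auxin and shade response genes and of the clock gene LHY in each library (y axes, linear), with ago5ago9 in red, wt21 in blue and wt col-0 in grey, 1 symbol per replicate number, and black marks for the mean and SD of 4 libraries. Replicates 1 and 2 of ago5ago9 (circle and square) stand above all other libraries in the first 7 panels, and have the lowest LHY values.

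No clock gene was called, but LHY and CCA1 were lowest in the same mutant libraries in which the auxin genes were highest. LHY and CCA1 encode the MYB factors that peak at dawn, so their levels follow the hour of harvest as well as genotype. LHY was at 42.5, 31.9, 106 and 85.9 CPM in ago5ago9. It was at 66.8, 63.7, 176 and 180 CPM in wt21 and at 157, 174, 91.5 and 87.9 CPM in wt col-0. Replicates 1 and 2 of ago5ago9 held the lowest values, and the next lowest were replicates 1 and 2 of wt21, in which IAA19 was at 3.16 and 3.13 CPM. CCA1 was at 28.5, 23.9, 56.7 and 49.0 CPM in ago5ago9 and between 30.8 and 92.8 CPM in wild type. Of 19 clock genes listed, 13 were tested and 0 were called, with 4 lower at an unadjusted p under 0.05. The list summed to 236, 214, 379 and 318 CPM in ago5ago9, to 297, 266, 496 and 482 CPM in wt21, and to 473, 526, 330 and 329 CPM in wt col-0. The wt21 sums were thus also lowest in replicates 1 and 2. The part of harvest time in the auxin result was not tested.

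Other lists describe what else moved with these libraries. The cell wall list, of enzymes that loosen the wall during growth, had 3 higher and 0 lower calls among 9 tested of 11 listed. Expansin EXPA8 had 33.0, 45.3, 19.6 and 24.6 CPM in ago5ago9 and 3.69 to 15.5 CPM in wild type, without overlap (log2 fold change 1.59, SE 0.31, adjusted p = 0.0245, edgeR). EXPA11 had 11.7, 13.8, 14.1 and 11.2 CPM in ago5ago9 and 2.05 to 10.9 CPM in wild type (1.17, SE 0.25, adjusted p = 0.0413). XTH22, a touch-induced xyloglucan-modifying enzyme, had 20.6, 24.4, 25.4 and 19.2 CPM in ago5ago9 and 3.93 to 21.8 CPM in wild type (1.29, SE 0.26, adjusted p = 0.031). For EXPA11 and XTH22 the 4 mutant libraries did not split into pairs. Replicates 3 and 4 of wt col-0, at 21.8 and 21.7 CPM of XTH22, lay within the mutant range, and the XTH22 call was lost against wt col-0 alone (0.63, adjusted p = 0.4, edgeR). Against wt21 alone the calls of EXPA11 (0.87, adjusted p = 0.27) and EXPA8 (1.41, adjusted p = 0.059) were lost. Without ago5ago9 replicate 1 or 2, adjusted p was 0.119 and 0.199 for EXPA8, 0.147 and 0.21 for EXPA11, and 0.11 and 0.181 for XTH22. EXPA8 was also lost without wt col-0 replicate 2 (0.0508), XTH22 without wt21 replicate 3 (0.0581) or wt col-0 replicate 1 (0.0567), and EXPA11 without 7 other single libraries (0.0503 to 0.0891).

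The 10 vascular genes listed summed to 80.0, 92.7, 57.7 and 88.5 CPM in ago5ago9 and to between 47.2 and 66.4 CPM in wild type. Of 8 tested, 0 were called, and 4 were higher at an unadjusted p under 0.05, among them XCP2, a protease of forming xylem (28.2, 36.4, 18.0 and 34.3 CPM in ago5ago9, 10.5 to 23.6 CPM in wild type, adjusted p = 0.0727, edgeR). Replicate 3 of ago5ago9, lowest of the mutant libraries in both measures, lay within the wild-type range. The part of vascular tissue content in the other results was not tested. No member was called in the lists for the shoot meristem and boundary (13 tested of 22 listed), leaf polarity (15 of 15), flowering (14 of 24), mitosis (16 of 16), photosynthesis (18 of 18) or stomata and trichomes (9 of 10). The same held for gibberellin and brassinosteroid synthesis (7 of 9), salicylic acid defence (5 of 10), touch, wound and cold (3 of 12), heat shock (2 of 8) and phosphate starvation (2 of 9). Of 19 genes of RNA-directed DNA methylation and silencing, all 19 were tested and 0 were called. Members of that list at an unadjusted p under 0.05 were SUVH4 (−0.47, SE 0.21, adjusted p = 0.367, edgeR) and DDM1 (−0.34, SE 0.16, adjusted p = 0.36), both lower.

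**Figure D4:**
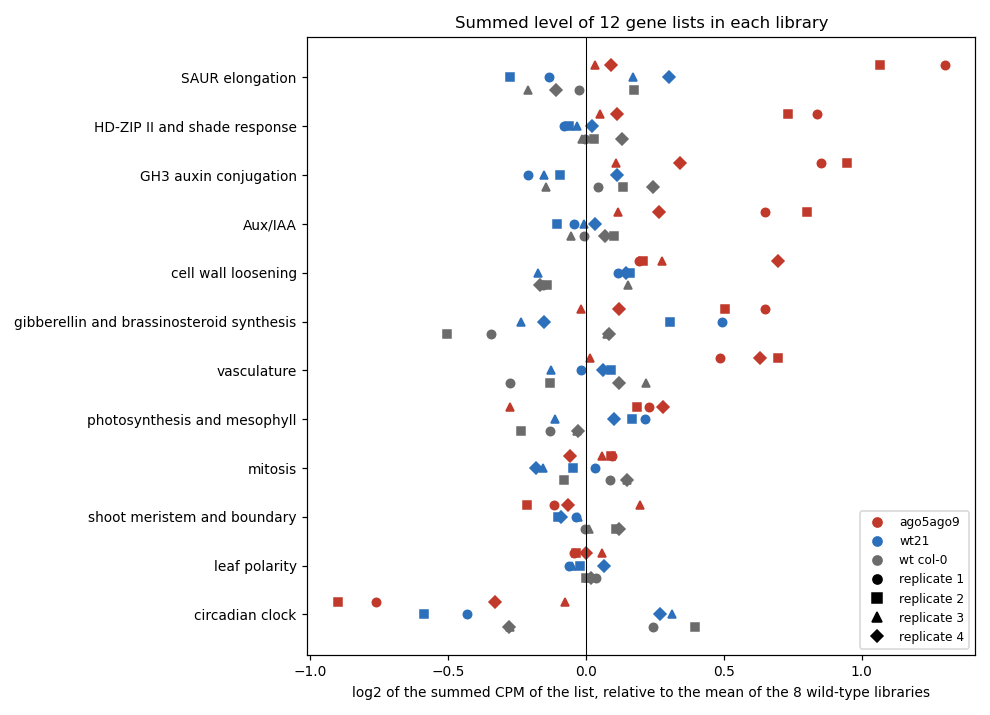
Log2 of the summed CPM of 12 gene lists in each library, relative to the mean of the 8 wild-type libraries (x axis), with ago5ago9 in red drawn above wt21 in blue and wt col-0 in grey. For the SAUR list replicates 1 and 2 of ago5ago9 (circle and square) sum to 625 and 531 CPM, against 210 to 312 CPM in wild type, and the same libraries have the lowest sums of the clock list.

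Besides MRD1, 9 genes were lower. ELIP2, a light-stress protein of the thylakoid membrane, had 42.3, 52.0, 80.7 and 93.4 CPM in ago5ago9 and 88.8 to 203 CPM in wild type (log2 fold change −1.25, SE 0.22, adjusted p = 0.00995, edgeR). Replicate 4 of ago5ago9 lay just above the lowest wild-type library, wt21 replicate 1. AT5G62210 had 12.1, 12.5, 24 and 21.4 CPM in ago5ago9 and 22.2 to 56.8 CPM in wild type (−1.21, SE 0.23, adjusted p = 0.0219). Both genes were lowest in replicates 1 and 2 of ago5ago9, and also of wt21. Replicates 1 to 4 of wt21 held 88.8, 113, 203 and 188 CPM of ELIP2 and 22.2, 23.2, 46.3 and 46.9 CPM of AT5G62210. The wt col-0 libraries did not show this order, at 177, 165, 180 and 160 CPM of ELIP2 and 56.8, 49.3, 41.0 and 38.0 CPM of AT5G62210. What the replicate numbers share is not in the labels. Both genes lost their call without ago5ago9 replicate 1 (adjusted p = 0.0739 and 0.15, edgeR) or replicate 2 (0.0936 and 0.181), and against wt21 alone. AT5G62210 also lost it without wt col-0 replicate 1 (0.0507) or 2 (0.0546). AT2G43500, annotated as NIN-LIKE PROTEIN 8, a regulator of nitrate-promoted germination, did not overlap: 1.87, 1.69, 1.55 and 1.51 CPM in ago5ago9 and 2.94 to 6.25 CPM in wild type (−1.41, SE 0.28, adjusted p = 0.0288). XRN2, a nuclear 5′ to 3′ exoribonuclease, did not overlap either, with 18.0, 14.2, 19.7 and 17.7 CPM in ago5ago9 and 22.5 to 35.6 CPM in wild type (−0.63, SE 0.13, adjusted p = 0.0379).

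ESM1, which steers glucosinolate breakdown towards isothiocyanates, had 46.2, 45.3, 39.9 and 39.5 CPM in ago5ago9. It had 68.7 to 74.3 CPM in wt21 and 43.9 to 55.6 CPM in wt col-0, so the mutant overlapped wt col-0 and not wt21 (−0.49, SE 0.09, adjusted p = 0.0223, edgeR). It was the 1 called gene among 10 glucosinolate genes. AT4G27560, AT5G12470, AT2G40430 and AT5G02830 had log2 fold changes of −0.82, −0.46, −0.44 and −0.75 with adjusted p of 0.0304, 0.031, 0.0413 and 0.0491, and in none of the 4 did the groups overlap. Each of these 4 genes, ESM1, XRN2 and AT2G43500 lost its call without ago5ago9 replicate 1 and without replicate 2 (adjusted p 0.0739 to 0.254) and without between 1 and 7 wild-type libraries one at a time (at most 0.101). ESM1, AT2G43500, AT4G27560, AT5G02830 and XRN2 also lost it without ago5ago9 replicate 4 (0.0623 to 0.142).

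A pair of higher calls are uncertain because, in each, libraries without counts of the called gene had counts of another feature. HSF4 (AT4G36990), a heat shock factor, had 19, 21, 20 and 14 counts in ago5ago9, 21, 25, 25 and 17 in wt21, and 0 in all 4 wt col-0 libraries. The feature AT4G36988 had 0 counts in ago5ago9 and wt21 and 86 in all over wt col-0, so no library had counts of both. AT4G36988 was not found in the RefSeq annotation, so its position relative to HSF4 was not checked, and why the counts alternate was not tested. Summed over both features the level was 3.21 ± 0.486 CPM in ago5ago9 (SD, n = 4) and 4.14 ± 0.905 CPM in wild type (SD, n = 8), with overlapping ranges. The HSF4 call (log2 fold change 3.33, SE 0.47, adjusted p = 0.006, edgeR) thus rested on the 0 counts of wt col-0, and against wt21 alone the log2 fold change was −0.47 (adjusted p = 0.652). It was also lost with both wild types as 1 group (0.57, adjusted p = 0.798). AT3G28290, chosen after its values were seen, was called at a log2 fold change of 4.74 (SE 0.82, adjusted p = 0.0159, edgeR) and paired with AT3G28300 in the same way. Their RefSeq gene sequences in build TAIR10.1, at chr3:10547441-10549401 and chr3:10565674-10567634, were identical over all 1961 bases. AT3G28290 had 9.73 to 16.0 CPM in ago5ago9 and 8.66 to 17.2 CPM in wt21 replicates 1, 2 and 4. It had 0 in wt21 replicate 3 and in wt col-0, where the counts stood at AT3G28300. Their sum was 12.2 ± 2.69 CPM in ago5ago9 (SD, n = 4) and 12.8 ± 4.32 CPM in wild type (SD, n = 8).

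**Figure D5:**
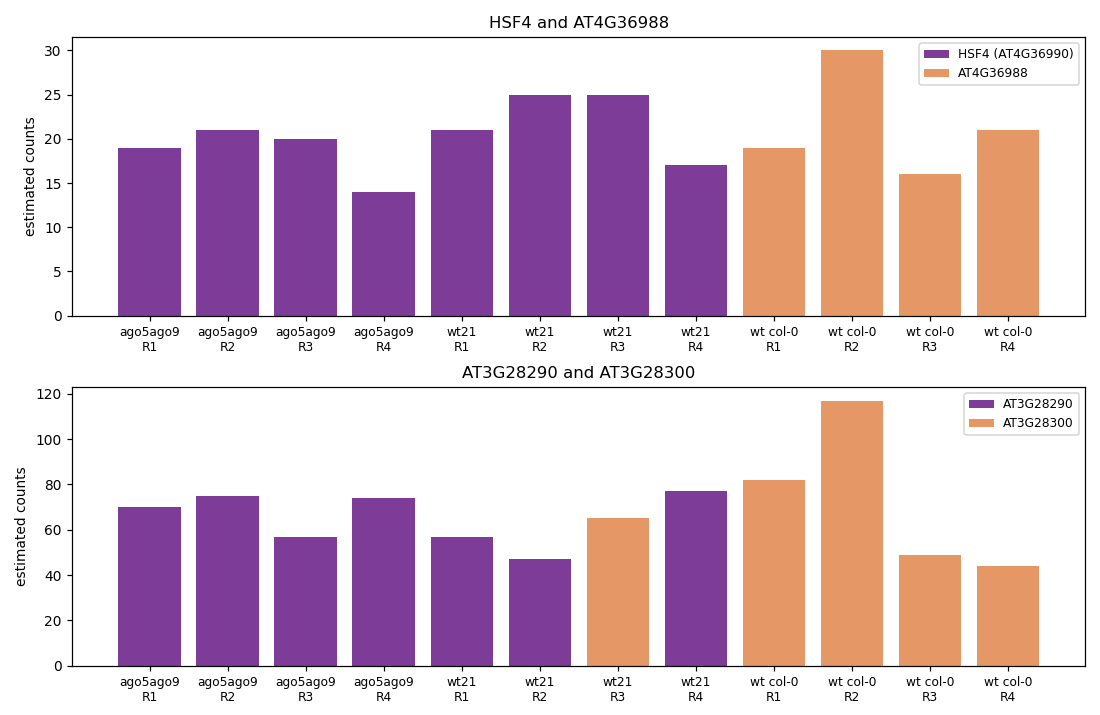
Estimated counts (y axes, from 0) of HSF4 with AT4G36988 (upper panel) and of AT3G28290 with AT3G28300 (lower panel) in each of the 12 libraries, stacked, with ago5ago9 on the left. Each library holds counts of 1 feature of a pair, AT4G36990 in ago5ago9 and wt21 and AT4G36988 in wt col-0, and the stacked totals overlap between the groups.

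The double mutant was also compared with the ago5 single mutant, which asks what the added ago9 label goes with. This comparison shares the 4 ago5ago9 libraries with the one above, so it is not independent of it. Of 14528 features tested in 8 libraries, 64 (0.441%) were called, 20 higher and 44 lower in ago5ago9. Of the 70 features higher than wild type, 68 were tested here and 11 were called higher, and of the 10 lower than wild type, 5 were called lower. Against ago5, AGP26 had a log2 fold change of 0.77 (SE 0.15, adjusted p = 0.0358, edgeR), AT4G24275 of 1.15 (SE 0.19, adjusted p = 0.0102), IAA19 of 2.65 (SE 0.56, adjusted p = 0.0472) and IAA2 of 1.80 (SE 0.37, adjusted p = 0.0394). MRD1 was lower still than in ago5 (−3.27, SE 0.56, adjusted p = 0.0133), at 0 to 1.02 CPM in ago5ago9 and 2.05 to 5.71 CPM in ago5. ELIP2 was at 41.5 to 92.3 CPM in ago5ago9 and 133 to 318 CPM in ago5 (−1.77, SE 0.26, adjusted p = 0.00716). For AT1TE93275, with 6.83 to 13 CPM in ago5ago9 and 5.71 to 9.06 CPM in ago5, no difference was detected (0.25, SE 0.24, adjusted p = 0.801).

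The smallest p against ago5 belonged to AT1G56720, chosen here after its values were seen, at 13.7, 13.5, 19.1 and 19.0 CPM in ago5ago9 and 1.97, 1.94, 1.80 and 0.913 CPM in ago5 (log2 fold change 3.25, SE 0.26, adjusted p = 4.90e-06, edgeR). Against wild type it was not called, with means of 16.6 CPM in ago5ago9 and 12.9 CPM in wild type (0.36, SE 0.13, adjusted p = 0.253), so the low group was ago5. FLS1, F3H and TT4, each an enzyme of flavonoid synthesis and also chosen after their values were seen, were lower in ago5ago9 than in ago5, with log2 fold changes of −1.11 for FLS1, −1.34 for F3H and −1.21 for TT4 (adjusted p = 0.00716, 0.00997 and 0.021). In ago5ago9 replicates 1 to 4, FLS1 was at 18.8, 16.3, 25.75 and 26.6 CPM and F3H at 36.8, 37.6, 71.2 and 77.1 CPM. TT4 was at 128.8, 105.1, 199 and 209.5 CPM. Replicates 1 and 2 were thus again apart from replicates 3 and 4, though all 4 lay below every ago5 library. Against wild type these genes had −1.22, −1.30 and −0.97 and were not called (adjusted p = 0.108, 0.153 and 0.102). The number of calls against ago5 was 8 without ago5 replicate 1, 22 without ago5 replicate 2, 20 and 22 when ago5ago9 replicate 1 or 2 was dropped, and 157 and 115 when replicate 3 or 4 was.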

How the data were processed

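Total RNA of shoot apices was extracted with Trizol and made into Smart-seq3 libraries, a full-length cDNA method, per the labels' protocols. The authors deposited 1 table of estimated counts per feature, unscaled, for all 44 libraries. Build TAIR10 and DESeq2 are named in the submitters' processing notes, without their role. The aligner, counter, annotation, strand and use of molecular identifiers are not given in the sources used here, so features that overlap or share sequence are uncertain. Of the non-zero estimated counts in the deposited table, 5.16% were not whole (tolerance 0.01), and values were rounded for testing. Columns were matched to samples by name.

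Nuclear genes and TEs (60606 of 60887 rows) entered the analysis, without organelle genes and 2 reporter rows. Features were filtered with filterByExpr by group, scaled by TMM (factors 0.904 to 1.11) and tested with edgeR 4.0.16 in R 4.3.3 (quasi-likelihood, common biological coefficient of variation 0.175). The contrast was ago5ago9 minus the mean of the wt21 and wt col-0 group means on the log scale, and p-values were adjusted by Benjamini-Hochberg over all features tested. Each SE given is the absolute log2 fold change divided by the square root of the quasi-likelihood F. It is therefore not a separately fitted standard error, and is unreliable where a group has few or 0 counts, as for MRD1 and HSF4. CPM values are TMM-scaled over the libraries of a comparison, and over all 44 where other groups are given. Log CPM correlated at 0.948 to 0.967 between replicates, and chi-square per degree of freedom of their counts was 2.53 to 39.6, so none was counted as a repeat. DESeq2 1.42.0, limma 3.58.1, other scalings, filters, controls and left-out libraries were alternatives. The test was checked on simulated counts with a coefficient of variation of 0.175 for every gene and independent replicates. That check does not cover a split among replicates such as the one in ago5ago9. The share of TE counts was tested by exact permutation in Python 3.11.15 with numpy 2.4.6.

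The text names the ARGONAUTE genes, the 12 called features with the smallest p in each direction, called list members (at most 6 per list and direction) and called TEs. Groups compared, members and lists were chosen with earlier results of these data known. Symbols come from RefSeq TAIR10.1, which matched 28929 of 29696 genes, and upstream windows from its genome and gene starts. Values of genes differ in length and are not compared between genes.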

Additional observations from a re-analysis of the deposited data

Results flagged for a closer look

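Of 117 groups of 4 libraries examined for 1 library far from the other 3, 2 stood out, where chance picks out about 1 in 20. IAA7 was at 41.9 CPM in wt21 replicate 3, against 59.4 to 60.2 CPM in the other 3 wt21 libraries. HFR1 was at 2.75 CPM in wt col-0 replicate 2, against 0.979 to 1.16 CPM in the other 3 wt col-0 libraries. Without wt21 replicate 3 or wt col-0 replicate 2, IAA7 and HFR1 stayed called (highest adjusted p over the wild-type libraries left out 0.0206 and 0.0213, edgeR).

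HSF4 differed between the wild types themselves, by 7.62 on the fitted log2 scale for wt21 over wt col-0 (adjusted p = 0.00011, edgeR), a value that depends on the prior count because wt col-0 had 0 counts. HSF4 and AT4G36988 were the 2 features called between wt21 and wt col-0, with 682 at an unadjusted p under 0.05 and 4 called by DESeq2.

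The mCherry reporter row, left out of all tests, held 13 counts over the 4 ago5ago9 libraries, against 11 over the 4 wt21 and 0 over the 4 wt col-0 libraries. The Clover row held 0 in each group.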

How the results depend on the processing

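Against wild type, 80 features were called (70 higher, 10 lower, 1 TE). DESeq2 called 181 (131, 50 and 2), limma voom 49 (41 higher, 8 lower), and the fit with no filter on low counts 272 (185, 87 and 5). Against wt col-0 alone there were 44 (21 and 23), against wt21 alone 33 (29 and 4), with both wild types as 1 group 68 (59 and 9), and with all 44 libraries in 1 model 100 (82 and 18). RLE scaling gave 82 calls and shifted the median log2 fold change by 0.00394, and organelle genes kept gave 77. Without 1 library at a time, calls ranged from 10 to 244 (9 to 179 higher, 1 to 65 lower, 1 to 4 TEs). Chosen after seeing the data, leaving out ago5ago9 replicates 1 and 2 gave 6 (5 and 1), and leaving out replicates 3 and 4 gave 342 (238, 104 and 4 TEs). The cause of these shifts was not tested.

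Deviations of same-numbered libraries correlated at 0.108, 0.137, 0.176 and 0.0435 between ago5ago9 and wt21 (replicates 1 to 4), and at −0.188 to −0.0368 in pairs with wt col-0. Not every pair passed 0.1, so the numbers were not taken to pair the samples. With the replicate block there were 36 calls against wild type (32 higher, 4 lower) and 161 against ago5, where 64 were called without it. The block ended 18 named calls, those of IAA1, IAA29, GH3.5, HAT1, HAT2, HAT3, SAUR28, SAUR62, SAUR63, EXPA8, EXPA11 and of the lower genes other than MRD1, ELIP2 and AT5G62210. Against ago5, DESeq2 called 139, no filter 251 and all 44 libraries 40. Without 1 library at a time the range was 8 to 157. The TE share differed by −0.0361 to −0.016 points without 1 library at a time, and passed the threshold without ago5ago9 replicate 3 (p = 0.0121, exact permutation test).

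Of 38 named features, 7 stayed called without each library in turn (MRD1, AT1TE93275, AGP26, AT4G24275, RTFL17, IAA19 and HSF4). Calls of 31 ended without ago5ago9 replicate 1 and of 30 without replicate 2. Over 910 values, 627 kept direction and call, 281 kept direction and lost the call, and 2 reversed: HSF4 against wt21 alone (−0.47) and HAT2 without ago5ago9 replicates 1 and 2 (−0.31). Among all 80, 4 stayed called under every alternative planned (MRD1, AT1TE93275, AGP26 and AT4G24275). Depth limits AGO5, AGO9 and most TEs, whose counts lie near the limit that a count of 0 allows.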

Other observations

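Of the features called higher against ago5, 9 were not called against wild type, among them AT1G56720, described above. PIF4, another of the 9, was at 52.3, 52.7, 35.4 and 38.4 CPM in ago5ago9 and 21.9 to 29.3 CPM in ago5 (log2 fold change 0.81, SE 0.16, adjusted p = 0.0276, edgeR), chosen after its values were seen. ELIP1, the paralog of ELIP2, was at 38.2, 31.5, 226 and 288 CPM in ago5ago9 and 509 to 996 CPM in ago5 (−2.34, SE 0.50, adjusted p = 0.0492), with replicates 1 and 2 of ago5ago9 again apart from replicates 3 and 4.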
